A study of Mus musculus with 27 samples.

Results

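In whole mouse liver, 10 genes of the liver sinusoidal endothelial cell were followed through a reproductive cycle: Stab1, Stab2, Lyve1, Clec4g, Kdr, Pecam1, Cdh5, Oit3, Bmp2 and Gpihbp1. They were taken by name as a readout of this cell type, with earlier results of these data known, and are 10 of the 51826 genes in the tables. All 10 were found by gene identifier, and all 10 passed the filter on low counts.

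The 27 livers came from age-matched wild-type BALB/c mice, an inbred laboratory strain, and the labels name no transgene, deletion or drug treatment in any group. The 7 groups were nulliparous mice (NUL, 4 animals), mice at lactation day 10 (LAC, 3), mice in involution at 2 days (ID2, 3), 4 days (ID4, 4), 6 days (ID6, 6) and 8 days (ID8, 3) after the pups were weaned, and regressed mice 4 weeks after weaning (REG, 4). Mothers were bred at 10 to 12 weeks of age, litters were evened in size, and pups were taken away at 10 to 14 days of lactation, so the length of lactation before weaning may vary by some days among the animals after weaning. The tissue was ground whole, so every value is an average over all liver cells, and for an endothelial gene fewer endothelial cells and less RNA per cell cannot be told apart.

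Sinusoids are the capillaries of the liver. Their lining cells have open pores and no continuous basement membrane, so plasma reaches the hepatocytes directly, and they take up waste macromolecules from blood through scavenger receptors. They also send signals to hepatocytes: BMP ligands made by these cells switch on the iron hormone hepcidin, and Wnt ligands of the central vein shape the zones of the lobule. Stab1 and Stab2 encode the stabilins, scavenger receptors for modified proteins, hyaluronan and matrix fragments. Lyve1 encodes a hyaluronan receptor, and Clec4g a C-type lectin of the sinusoid. Kdr encodes VEGF receptor 2, Pecam1 and Cdh5 encode adhesion molecules of the endothelial junction, Oit3 encodes a secreted protein with a zona pellucida domain, Bmp2 a BMP ligand, and Gpihbp1 the capillary protein that binds lipoprotein lipase.

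In the GENCODE annotation on GRCm38, the scavenger and lectin receptors are Stab1 (ENSMUSG00000042286, chr14:31139013-31168641, minus strand), Stab2 (ENSMUSG00000035459, chr10:86841198-87008025, minus strand), Lyve1 (ENSMUSG00000030787, chr7:110850607-110863239, minus strand) and Clec4g (ENSMUSG00000074491, chr8:3707064-3720651, minus strand). Kdr is ENSMUSG00000062960, chr5:75932827-75978458, minus strand. The junction genes are Pecam1 (ENSMUSG00000020717, chr11:106654217-106750628, minus strand) and Cdh5 (ENSMUSG00000031871, chr8:104101625-104144511, plus strand). The secreted and lipase-binding products come from Oit3 (ENSMUSG00000009654, chr10:59422958-59441778, minus strand), Bmp2 (ENSMUSG00000027358, chr2:133552159-133562885, plus strand) and Gpihbp1 (ENSMUSG00000022579, chr15:75596628-75599481, plus strand). Each is a protein-coding gene, and the values are for the whole gene, exons of all its transcripts together. Stab1 shares 112 bases with Nt5dc2, which had at most 279 reads in a library. Stab2, Clec4g and Cdh5 lie opposite antisense or pseudogene models with at most 11 reads, and reads of such partners cannot be told apart because no source used here states how strand was handled.

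Promoter sequence from RefSeq (GRCm38.p6) was matched for 4 of the 10 genes, and those of Stab1 and Kdr are shown because both genes were higher 2 days after weaning than in lactation. Each window is 247 bases long, starts 250 bases before the RefSeq start of the gene and is written 5′ to 3′ on the minus strand, which is the strand of the gene. Capitals mark AGGAAG, a core motif of the ETS family of factors that act in endothelial cells.
Stab1, chr14:31168645-31168891: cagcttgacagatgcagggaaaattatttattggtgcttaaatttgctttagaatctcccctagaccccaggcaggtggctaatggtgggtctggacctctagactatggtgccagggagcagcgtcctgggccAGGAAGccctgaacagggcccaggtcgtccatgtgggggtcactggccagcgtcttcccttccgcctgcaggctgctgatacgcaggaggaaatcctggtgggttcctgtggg
Kdr, chr5:75978459-75978705: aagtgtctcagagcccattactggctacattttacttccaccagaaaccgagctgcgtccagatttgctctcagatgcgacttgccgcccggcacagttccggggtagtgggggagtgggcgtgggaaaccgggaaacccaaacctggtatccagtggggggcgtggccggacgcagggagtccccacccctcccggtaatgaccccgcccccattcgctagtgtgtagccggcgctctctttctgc
AGGAAG was searched on both strands and was found in 29.2% of 32851 mouse promoter windows of that length. AGATAA, a core motif of GATA factors, was searched likewise and was found in 9.9% of them, and the searched motifs share no overlap. The Stab1 window holds 1 AGGAAG, starting 116 bases before the gene start, and the Kdr window holds none. Neither window holds AGATAA. These are matches of letters only.

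Library totals ran from 41120650 to 75664540 estimated counts, and each of the 10 genes had at least 194 counts in every library, which was the lowest count of Lyve1. Albumin took 15.1% to 18% of the counts in LAC and 6.82% to 11.9% in all other groups. In 3 libraries the 8 markers of pancreas acinar cells summed to over 10 CPM (counts relative to the TMM-scaled library total): ID2_31 (1149), ID4_15 (78.7) and ID8_98b (23.9). Of the 27 animals, 7 have a title number under 200 (2 in ID2, 2 in ID4 and all 3 in ID8), and 16 libraries were sequenced in 2 runs. Whether animals with the same number range, or with as many runs, shared a cage, a day or an extraction is not given in the sources used here. Animals are named here by group and title number, as the labels do. The labels give separate animals, so the spread between libraries is between mice.

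Per length, Clec4g had the highest level of the 10 genes in nulliparous liver. Its transcript level was 103 ± 5.97 TPM (a length-scaled share of transcripts; SD, n = 4), followed by Gpihbp1 at 45.8 ± 6.28. Stab1 (16.04), Oit3 (13.96), Stab2 (12.2), Kdr (11.5), Cdh5 (9.20) and Pecam1 (8.31) came next, each overlapping its neighbour in the order over the 4 animals. Bmp2 was at 4.74 TPM, below the range of Pecam1, and overlapped Lyve1 at 3.46. All 10 genes were therefore detected in the labelled tissue, and the Lyve1 values were the most scattered for their mean, from 1.71 to 6.22 TPM.

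The lowest levels of most of these genes were found in lactation. Against nulliparous liver, all 10 had a lower fitted value in LAC, with a median log2 fold change of -0.31, and 4 of them were called lower: Bmp2, Gpihbp1, Stab1 and Cdh5. At ID2, 2 days after weaning, 9 of 10 had a higher fitted value than in lactation, with a median of 0.35, and 6 were called: Bmp2, Stab1, Stab2, Kdr, Cdh5 and Pecam1. None of the 10 differed from nulliparous liver by the test at ID2, at later days or at 4 weeks. A gene was called at an adjusted p under 0.05 in edgeR's quasi-likelihood test with Benjamini-Hochberg adjustment over all 16428 genes tested. Values below are CPM, and log2 fold changes are given with their standard errors.

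**Figure D1:**
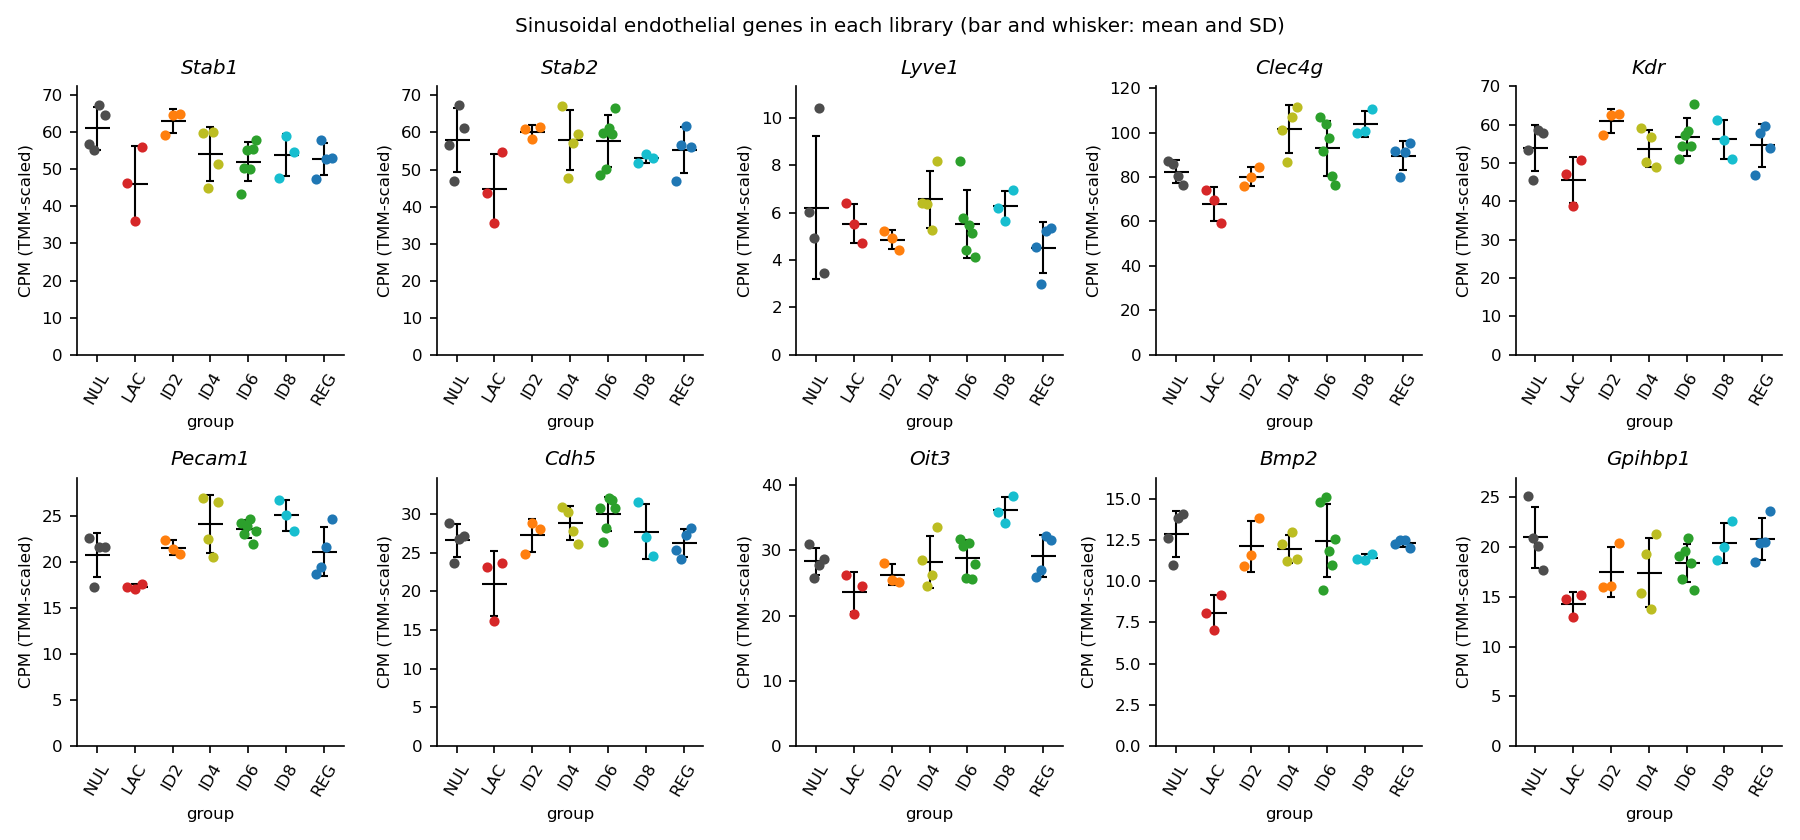
Level of each of the 10 genes in every library (y axis: TMM-scaled CPM from 0; x axis: group; points: animals; bar and whisker: mean and SD). Bmp2 and Gpihbp1 in the 3 LAC animals lie below all 4 NUL animals, Clec4g is highest at ID4 and ID8, and Oit3 is highest at ID8.

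Stab1 stood at 56.8, 55.3, 67.4 and 64.5 CPM in the 4 NUL animals and at 46.4, 35.95 and 56.1 in the 3 LAC animals. The lactating animals were low, but the highest of them (LAC_240) lay inside the nulliparous range. Stab1 fell in lactation (log2 fold change -0.40 ± 0.12, adjusted p = 0.0322). The 3 ID2 animals had 59.2, 64.5 and 65.02, all above the 3 LAC animals, and Stab1 rose between these stages (log2 fold change 0.45 ± 0.13, adjusted p = 0.0201). Later group means were 54.05 ± 7.24 at ID4, 52.1 ± 5.33 at ID6, 53.8 ± 5.71 at ID8 and 52.8 ± 4.28 in REG (SD, n = 4, 6, 3 and 4). They lie below the nulliparous mean of 61 ± 5.89 (n = 4), but no later stage differed by the test, with adjusted p-values against NUL of 0.438, 0.365, 0.569 and 0.765.

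Stab2, the paralog of Stab1, had 56.5, 47, 67.5 and 61.1 CPM in NUL and 43.7, 35.6 and 54.7 in LAC. The groups overlap through LAC_240, and the difference from NUL missed the threshold (log2 fold change -0.38 ± 0.13, adjusted p = 0.0652). At ID2 the values were 60.9, 58.3 and 61.4, without overlap with LAC. Stab2 rose there (log2 fold change 0.43 ± 0.14, adjusted p = 0.0368). From ID4 to REG its group means stayed between 52.98 and 57.9 CPM.

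Clec4g followed another course. It was at 87.3, 85.9, 80.3 and 76.2 CPM in NUL and 74.3, 69.6 and 59.5 in LAC, with no overlap, yet the fold change did not reach the threshold over all genes (log2 fold change -0.28 ± 0.11, adjusted p = 0.0887). At ID2 it had 76.1, 79.8 and 84.6, at ID4 101.3, 86.7, 107 and 112 and at ID8 100, 100 and 110. The 4 ID4 animals were all above the 3 ID2 animals, and all 3 ID8 animals were above all 4 NUL animals. Neither difference passed over all genes (ID4 against ID2: log2 fold change 0.34 ± 0.11, adjusted p = 0.103; ID8 against NUL: log2 fold change 0.33 ± 0.11, adjusted p = 0.166). The 6 ID6 animals spread from 76.2 at the lowest, 94.7 at the median and 107 at the highest, and REG had 91.6, 80.1, 91.3 and 95.3. In the joint test for any difference among the 7 groups Clec4g had the smallest adjusted p of the 10 genes, 0.00107.

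Lyve1, the hyaluronan receptor, was low and scattered. Its values were 6.04, 4.94, 10.4 and 3.44 CPM in NUL, 6.40, 5.50 and 4.73 in LAC and 5.21, 4.94 and 4.42 in ID2. The nulliparous animals alone covered more than the range of both other groups, and Lyve1 was not called (log2 fold change -0.16 ± 0.27, adjusted p = 0.775 in LAC against NUL). What size of change could have been detected for Lyve1 was not tested. It was the only member with a lower fitted value at ID2 than in lactation (log2 fold change -0.19 ± 0.29, adjusted p = 0.710).

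Kdr, the receptor through which VEGF keeps endothelial cells alive and growing, had 53.5, 45.5, 58.6 and 57.9 CPM in NUL and 47.03, 38.8 and 50.7 in LAC, with overlap (log2 fold change -0.24 ± 0.11, adjusted p = 0.151). The ID2 animals were at 57.2, 62.6 and 62.9. All of them were above the lactating animals, and Kdr rose (log2 fold change 0.42 ± 0.11, adjusted p = 0.0114). Its mean was 60.9 ± 3.17 at ID2 and 53.9 ± 6.00 in NUL, a difference that missed the threshold (adjusted p = 0.408).

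Of the junction genes, Pecam1 was at 22.6, 17.3, 21.6 and 21.6 CPM in NUL and 17.3, 17.1 and 17.6 in LAC. The lactating animals were close together, and NUL_221 was as low as they were (log2 fold change -0.26 ± 0.10, adjusted p = 0.0991). Pecam1 rose at ID2, to 22.4, 21.4 and 20.9 (log2 fold change 0.32 ± 0.11, adjusted p = 0.0448). It was higher again in the ID8 animals (26.8, 25.1 and 23.4), which did not overlap NUL, though without passing the test (log2 fold change 0.27 ± 0.10, adjusted p = 0.247).

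Cdh5, which encodes VE-cadherin, had 28.8, 23.6, 26.7 and 27.1 CPM in NUL and 23.1, 16.1 and 23.7 in LAC. LAC_213 was the lowest of all 27 animals, and the other lactating animals lay just below or at the lower edge of NUL. Cdh5 fell in lactation (log2 fold change -0.34 ± 0.11, adjusted p = 0.0469). It rose at ID2, to 24.8, 28.9 and 28.03, without overlap (log2 fold change 0.37 ± 0.12, adjusted p = 0.0315). The 6 ID6 animals had 26.3 at the lowest, 30.8 at the median and 32 at the highest.

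Oit3 had the smallest fitted difference of the 10 genes between lactation and ID2. It was at 30.9, 25.8, 27.8 and 28.7 CPM in NUL, 26.2, 20.3 and 24.6 in LAC and 28.1, 25.5 and 25.2 in ID2 (LAC against NUL: log2 fold change -0.26 ± 0.11, adjusted p = 0.136; ID2 against LAC: log2 fold change 0.15 ± 0.12, adjusted p = 0.409). The 3 ID8 animals had 35.9, 34.1 and 38.3, above each of the other 24 animals. Oit3 passed the joint test over stages (adjusted p = 0.00769). The ID8 difference itself did not pass against NUL (log2 fold change 0.35 ± 0.11, adjusted p = 0.142) or against ID6 (log2 fold change 0.33 ± 0.10, adjusted p = 0.0569), where it was called by DESeq2, by upper-quartile scaling and with a stricter filter. All 3 ID8 animals have title numbers under 200, and no NUL, ID6 or REG animal has. Stage and number range therefore cannot be told apart when ID8 is set against these groups, for Oit3 or any other of the 10 genes. ID2 and ID4 hold both ranges. Their animals under 200 (ID2_31, ID2_39, ID4_13 and ID4_15) had 28.1, 25.5, 28.5 and 24.6 CPM of Oit3. The others had 25.2 (ID2_224), 26.3 (ID4_211) and 33.6 (ID4_215). The part of the range in the ID8 values was not tested.

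Bmp2 had the largest change of the 10 genes in lactation. Its values were 12.6, 11, 13.8 and 14.1 CPM in the NUL animals and 8.11, 7.07 and 9.14 in the LAC animals, so all lactating animals were below all nulliparous ones. Bmp2 fell to 0.629 of its nulliparous level in the fit (log2 fold change -0.67 ± 0.13, adjusted p = 0.00113). At ID2 it was back at 10.9, 11.6 and 13.8, without overlap with LAC (log2 fold change 0.58 ± 0.14, adjusted p = 0.00507). It had 12.2, 11.2, 13 and 11.4 at ID4, 11.3, 11.3 and 11.7 at ID8 and 12.3, 12.5, 12.5 and 12.03 in REG, where the 4 animals were nearly equal. The ID6 animals had 9.46 at the lowest, 12.2 at the median and 15.1 at the highest. All LAC values were below the lowest value of every other group.

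Gpihbp1 also fell without overlap. It was at 25.1, 20.9, 20.1 and 17.7 CPM in NUL and 14.8, 12.9 and 15.2 in LAC (log2 fold change -0.55 ± 0.14, adjusted p = 0.00844). At ID2 it had 15.97, 16.1 and 20.4, all above LAC, but the rise was smaller than that of Bmp2 and missed the threshold (log2 fold change 0.29 ± 0.15, adjusted p = 0.183). ID4 was split, at 15.3, 19.3, 13.8 and 21.3, and reached into the lactating range. ID8 (18.7, 19.96 and 22.6) and REG (18.5, 20.4, 20.5 and 23.6) were back within the nulliparous range.

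The counts were read against all genes, as a description only, because the list was chosen with earlier results of these data known. In LAC against NUL 11.2% of the 16428 genes were called and 6% were called lower, where 4 of the 10 sinusoidal genes were. Ranges of CPM without overlap and lower in LAC were found for 3 of the 10 (Clec4g, Bmp2 and Gpihbp1), against 11.2% of all genes. In the deposited TPM the ranges of Stab1, Pecam1, Cdh5 and Oit3 did not overlap either, so overlap depended on the measure. The share of all genes without overlap in TPM was not taken. The median log2 fold change of all genes was -0.01, and 9 of the 10 members had an unadjusted p under 0.05, as had 23.6% of all genes. Of 1837 genes called in this comparison 46.4% were higher in LAC. In limma on log2(TPM + 1) of the deposited TPM the share was 36.3% of 1425, and on log2(TPM + 0.1) it was 32.03% of 1514, while with only the compared groups in the fit it was 54.5% of 1315.

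In ID2 against LAC 16.1% of all genes were called and 8.48% were called higher, where 6 of 10 members were. Ranges without overlap and higher at ID2 were found for 8 of the 10, against 18.1% of all genes. Both comparisons share the LAC animals, so they are not independent of each other. In ID2 against LAC 7 of 10 Kupffer cell and macrophage genes (median 0.55) and 4 of 4 smooth muscle genes were called higher too. So was 1 each of 7 stellate, 6 bile duct, 5 leukocyte and 3 lymphatic genes. Of 7 hepatocyte, 4 platelet and 5 erythroid genes none was called higher, and 1 hepatocyte gene was called lower. Without LAC_213 the Kupffer cell, smooth muscle and stellate numbers became 0, 1 and 0. The part of these markers was not tested. The joint test over the 7 groups called 27% of all genes and 6 members (Clec4g, Pecam1, Bmp2, Oit3, Cdh5 and Gpihbp1, adjusted p from 0.00107 to 0.0269).

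**Figure D2:**
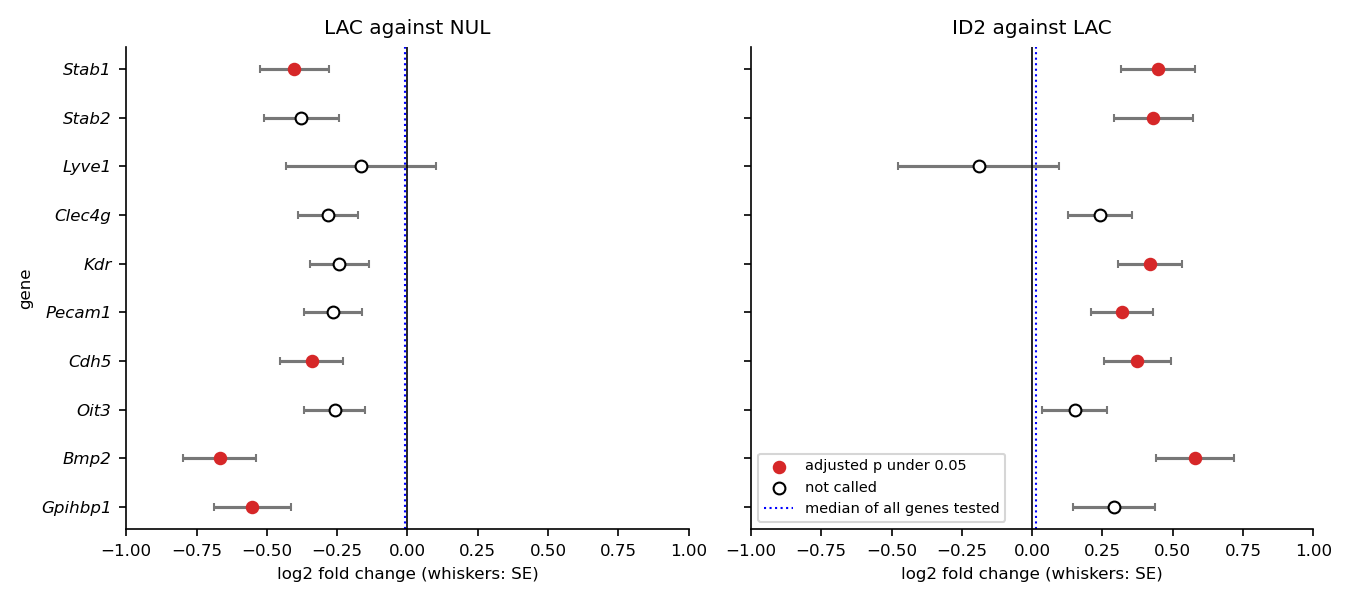
Log2 fold change of each gene (x axis; whiskers: SE) in LAC against NUL and in ID2 against LAC (y axis: gene). Filled points were called by edgeR; all 10 points lie left of 0 in lactation and 9 of 10 lie right of 0 at ID2, while the dotted median of all genes is near 0.

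These counts leaned on LAC_213, which had the lowest value of all 27 animals for each member but Lyve1 and Clec4g and the highest share of albumin. Without it 1 member was called in LAC against NUL, Bmp2 (-0.58, adjusted p = 0.0149), and 1 in ID2 against LAC, again Bmp2 (0.49, adjusted p = 0.0439). The other calls in lactation became -0.49 for Gpihbp1 (adjusted p = 0.0591), -0.25 for Stab1 (0.271) and -0.18 for Cdh5 (0.377), and at ID2 0.32 for Kdr (0.0991), 0.30 for Stab1 (0.169), 0.29 for Stab2 (0.235), 0.22 for Cdh5 (0.254) and 0.31 for Pecam1 (0.126). The fitted value in LAC was below NUL for 9 of 10 members (all but Lyve1) without NUL_226 and for all 10 without each other animal. Bmp2 remained called in both comparisons with each animal of the compared groups left out in turn. In LAC against NUL 2 members were called without NUL_226 or NUL_227, and in ID2 against LAC 2 were called without ID2_39 or without ID2_224. The Stab1 call in lactation was lost without NUL_226, NUL_227, LAC_200 or LAC_213, and the Cdh5 call without NUL_220, NUL_226, NUL_227 or LAC_213. At ID2 the Pecam1 call was lost without any 1 of the 6 animals and the Stab2 call without any but LAC_240, while those of Stab1 and Cdh5 were lost without ID2_39 or ID2_224 too. The joint test called 3 members without LAC_213, and lost Bmp2 (adjusted p = 0.0795), Cdh5 (0.111) and Gpihbp1 (0.107). The Cdh5 call in lactation was also lost under 7 other settings, among them RLE scaling, no filter on low counts, scaling without the most abundant genes and a fit of the compared groups only, which ended the Stab1 call too. At ID2 the calls of Pecam1 and Stab2 were each lost under 7 settings, among them both limma fits on TPM. The LAC and NUL animals all have title numbers of 200 and over, and a fit of that range alone called Bmp2, Gpihbp1 and Stab1 in lactation. Among the animals with title numbers of 200 and over, which leave ID2 with 1 animal, 9 of 10 members had a higher fitted value at ID2 than in LAC, though fewer were called. With the number range as a term of the fit, 2 members were called in ID2 against LAC. Of all 16428 genes 1249 were called under that setting, against 2648 in the main fit.

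Outside these comparisons no member was called. The shares of all genes called were 3.24% for ID2, 4.25% for ID4, 1.08% for ID6, 0.499% for ID8 and 0.0852% for REG, each against NUL. They were 1.49% for ID4 against ID2, 8.53% for ID6 against ID4, 4.12% for ID8 against ID6 and 0.0487% for REG against ID8. At an unadjusted p under 0.05 there were 3 members at ID4 against NUL (Clec4g, Pecam1 and Gpihbp1), 2 at ID6 (Stab1 and Pecam1), 3 at ID8 (Clec4g, Pecam1 and Oit3), and 0 at ID2 and in REG, where the shares of all genes were 18.6% at ID4, 11.9% at ID6, 12.8% at ID8, 16.9% at ID2 and 7.17% in REG. Between successive stages there were 1 at ID4 against ID2 (Clec4g, with 13.9% of all genes), 0 at ID6 against ID4 (22.9%), 1 at ID8 against ID6 (Oit3, 20.5%) and 2 in REG against ID8 (Pecam1 and Oit3, 9.02%). DESeq2 called 1 member in ID4 against NUL (Clec4g), 1 in ID8 against ID6 (Oit3, also called without ID6_201 or ID6_218), and 0 in the other 7 comparisons of this kind. Clec4g at ID4 against NUL was also called without ID4_15, a library with pancreas markers (0.37, adjusted p = 0.039). In REG against NUL the 95% intervals of the log2 fold changes reached from -0.26 to 0.23 for Gpihbp1 and from -0.29 to 0.17 for Bmp2, which do not reach the fitted fall of either gene in lactation. The interval of Stab1, from -0.43 to 0.01, does include its fall.

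To see which members moved more than endothelial genes in general, each was expressed as a percentage of the summed CPM of 20 general endothelial genes, a measure added after the data had been seen. That sum itself was 286 to 308 CPM in LAC and 346 to 382 in NUL, without overlap. Bmp2 made up 3.36, 3.18, 3.66 and 3.68% of it in NUL and 2.63, 2.47 and 3.11% in LAC. The ranges did not overlap, and the log2 ratio differed by -0.35 (exact two-sided permutation p = 0.0571, the smallest that 3 against 4 animals allow, adjusted p = 0.264 over 60 tests). Gpihbp1 made up 6.68, 6.04, 5.33 and 4.63% in NUL and 4.81, 4.52 and 5.15% in LAC, with overlap (-0.22, exact permutation p = 0.229, adjusted p = 0.623). The other 8 genes differed from NUL by -0.10 to 0.27 in LAC, all with overlap.

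In the same measure Clec4g made up 23.2, 24.8, 21.3 and 19.9% in NUL, 26.1, 27.02, 30.4 and 31.9% at ID4 and 27.9, 26.96 and 30.8% at ID8. Both later groups were above NUL without overlap (ID4: 0.37, exact permutation p = 0.0286, the smallest for 4 against 4; ID8: 0.36, exact permutation p = 0.0571; adjusted p = 0.264 for each). Oit3 made up 8.23, 7.46, 7.36 and 7.51% in NUL and 10, 9.16 and 10.7% at ID8 (0.38, exact permutation p = 0.0571, adjusted p = 0.264). Kdr and Pecam1 at ID2 and Pecam1 at ID8 were also above NUL without overlap. The smallest unadjusted p was at ID6, where the groups overlapped: Stab1 lay lower (-0.25, exact permutation p = 0.019), and Pecam1 (0.17, exact permutation p = 0.019) and Cdh5 (0.16, exact permutation p = 0.019) lay higher. The smallest adjusted p of the 60 tests was 0.264, and with 3 against 4 animals the tests of LAC, ID2 and ID8 could not reach 0.05. Against the sum of 9 other sinusoidal genes in place of the general ones, Bmp2 in LAC (-0.35), Oit3 at ID8 (0.33), Kdr at ID2 and Pecam1 at ID8 again did not overlap NUL. Stab1 in REG lay below NUL without overlap by this sum (-0.27, exact permutation p = 0.0286), but not by the general one. With this sum Clec4g overlapped NUL at ID4 (0.31, exact permutation p = 0.0571) and ID8 (0.31, exact permutation p = 0.114), as did Pecam1 at ID2.

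**Figure D3:**
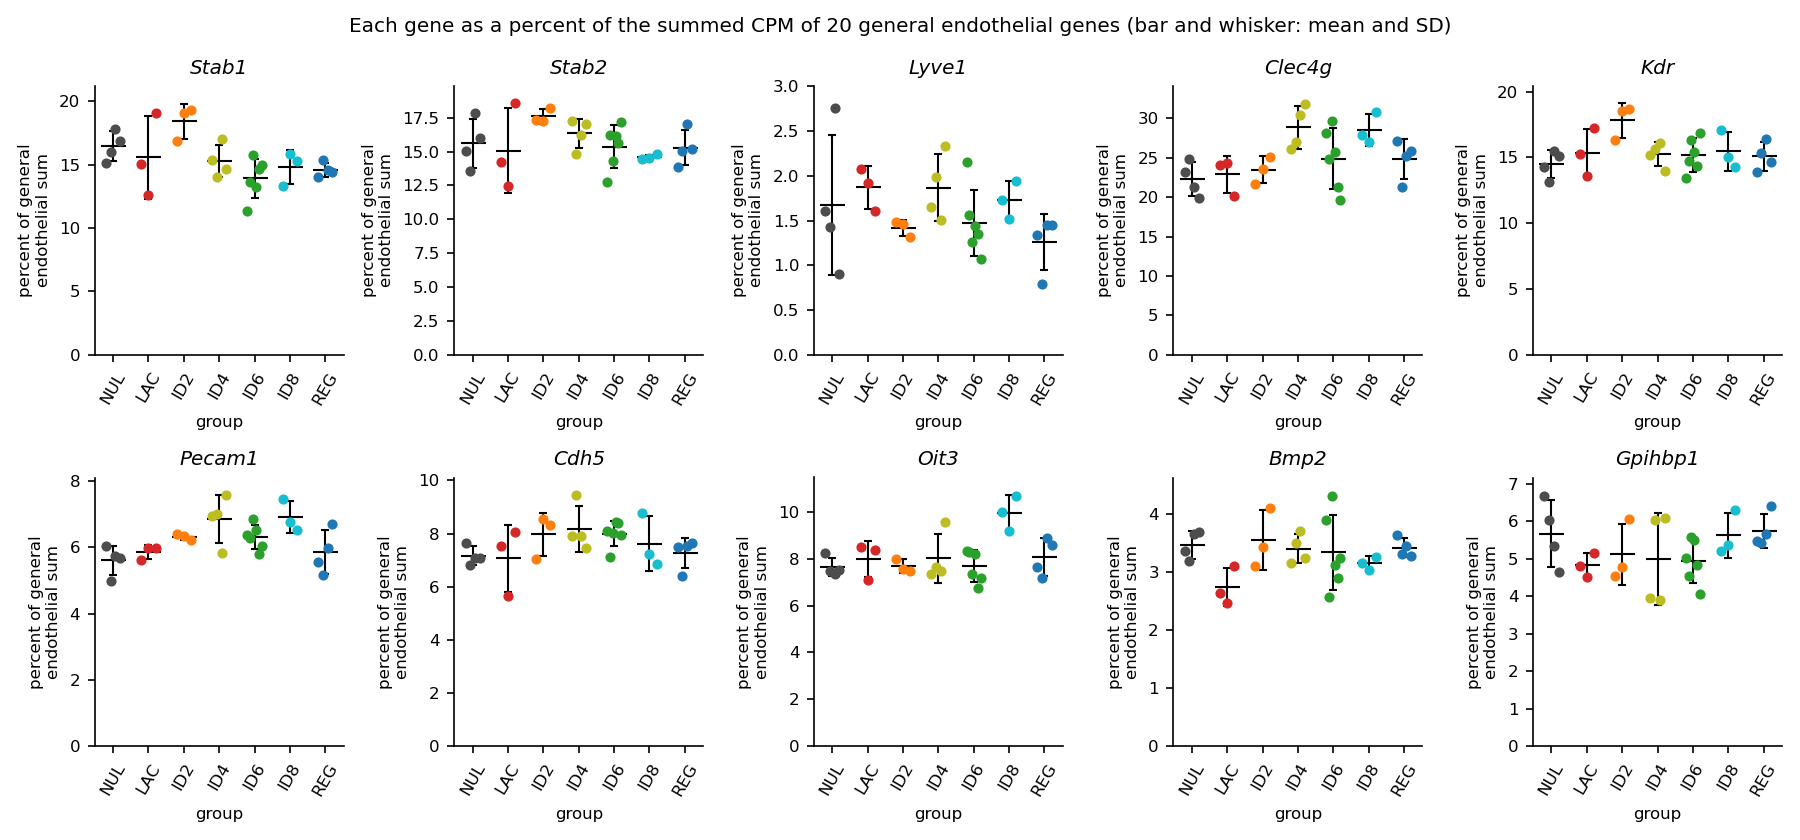
Each gene as a percentage of the summed CPM of 20 general endothelial genes (y axis, from 0; x axis: group; points: animals; bar and whisker: mean and SD). Bmp2 in LAC, Clec4g at ID4 and ID8 and Oit3 at ID8 stand apart from the NUL animals, while Stab1, Stab2 and Cdh5 in LAC overlap NUL.

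The 10 genes varied together to unequal degrees. Over the 27 libraries, Pearson's r of log2(CPM + 0.5) with the mean of the other 9 was highest for Pecam1 (0.77), Cdh5 (0.74), Bmp2 (0.69) and Stab2 (0.66) and lowest for Lyve1 (0.12). After subtraction of group means it was 0.60 for Oit3, 0.59 for Pecam1 and 0.54 for Stab2, but 0.05 for Clec4g. The low value for Clec4g is between animals of the same stage. Libraries share depth and composition, so these values are descriptions. Outside the lists, the 5 genes most like the mean of the members among 10945 whose mean CPM was 2 or more were Aqp1 (r = 0.88), a water channel, Mylip (0.85), a ubiquitin ligase for lipoprotein receptors, Pth1r (0.85), the parathyroid hormone receptor, Rab3il1 (0.85) and Pam (0.84), which amidates peptides. Since they were chosen over all libraries, LAC included, their course follows from the choice, for example Aqp1 from 118 CPM in NUL to 79.4 in LAC and 112 at ID2.

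Of 9 other sinusoidal genes 4 fell in lactation and none rose. Of the 5 not called, 4 had a lower fitted value and Gata4, an endothelial transcription factor, named outside the rule and after its values were seen, was at 27.5 CPM in both groups. Those that fell were Fcgr2b, an Fc receptor that clears immune complexes (log2 fold change -0.48 ± 0.10, adjusted p = 0.00150), Mrc1, the mannose receptor (log2 fold change -0.45 ± 0.10, adjusted p = 0.00259), the DNase gene Dnase1l3 (log2 fold change -0.41 ± 0.10, adjusted p = 0.00837) and Flt4, VEGF receptor 3 (log2 fold change -0.32 ± 0.10, adjusted p = 0.0402). The median of the 9 was -0.32. At ID2 5 of the 9 rose against LAC, led by Flt4 (log2 fold change 0.65 ± 0.11, adjusted p = 0.000203) and Fcgr2b (log2 fold change 0.49 ± 0.10, adjusted p = 0.00166). Clec1b, a lectin receptor, was above NUL at ID4 (8.91 ± 1.38 against 5.82 ± 1.07 CPM, log2 fold change 0.61 ± 0.14, adjusted p = 0.00958). It was the only 1 of the 9 called there, and their median was 0.005. In that comparison 7 of 10 Kupffer cell and macrophage markers were called higher (median 0.55), and their part in the Clec1b level was not tested.

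Of 20 general endothelial genes all had a lower fitted value in LAC, here and under each alternative, and 9 were called lower (median -0.31). Klf2, a factor induced by blood flow, fell (log2 fold change -0.64 ± 0.16, adjusted p = 0.00771). The adrenomedullin receptor genes Calcrl (log2 fold change -0.51 ± 0.15, adjusted p = 0.0251) and Ramp2 (log2 fold change -0.51 ± 0.14, adjusted p = 0.0179) fell too, as did Mmrn2, a matrix protein of the vessel wall (log2 fold change -0.47 ± 0.11, adjusted p = 0.00425). At ID2 3 rose: Mmrn2 (log2 fold change 0.52 ± 0.11, adjusted p = 0.00243), Tie1 (log2 fold change 0.47 ± 0.10, adjusted p = 0.00286) and Flt1, VEGF receptor 1 (log2 fold change 0.38 ± 0.12, adjusted p = 0.0296). Of 9 genes of large vessels and continuous capillaries 2 fell in LAC, Ltbp4 (log2 fold change -0.91 ± 0.14, adjusted p = 0.000118) and Cd34 (log2 fold change -0.70 ± 0.19, adjusted p = 0.0139). Without LAC_213 the called numbers in lactation were 2 of 9 other sinusoidal, 3 of 20 general and 1 of 9 large-vessel genes, namely Fcgr2b, Mrc1, Klf2, Ramp2, Mmrn2 and Ltbp4, and at ID2 they were 3 of 9, 2 of 20 and 0 of 9. The calls of Flt4, Calcrl and Ramp2 in lactation, and of Flt1 at ID2, were also lost without 1 or more of the other animals compared (for Ramp2, NUL_226, LAC_200 and LAC_240). With only title numbers of 200 and over, the ID2 calls were 1 of 9 other sinusoidal and 0 of 20 general genes, and those of Fcgr2b, Mmrn2, Tie1 and Flt1 were lost.

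Of 8 VEGF and angiopoietin ligands and co-receptors tested, 3 fell and 1 rose in LAC. Nrp1, the VEGF co-receptor neuropilin 1, was at 50.8 ± 4.60 CPM in NUL (n = 4), 28.5 ± 3.14 in LAC (n = 3) and 47.96 ± 8.30 at ID2 (n = 3). It fell in LAC (log2 fold change -0.83 ± 0.14, adjusted p = 0.000281) and rose at ID2 (log2 fold change 0.75 ± 0.15, adjusted p = 0.00109), with calls that held without LAC_213. Nrp2 fell (log2 fold change -0.47 ± 0.15, adjusted p = 0.0455), as did Angpt1, the ligand of the Tek receptor (log2 fold change -1.20 ± 0.35, adjusted p = 0.0225), and both calls were lost without that animal (adjusted p = 0.337 and 0.101). Vegfb rose (log2 fold change 0.46 ± 0.11, adjusted p = 0.00524), and Vegfa, the main ligand of Kdr, had 119 ± 20.1 CPM in NUL and 109 ± 10.1 in LAC (log2 fold change -0.13 ± 0.13, adjusted p = 0.616).

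Among 6 Wnt and Notch ligands of liver endothelium 1 rose and 1 fell in LAC. Dll1, a Notch ligand, was at 3.17 ± 0.531 CPM in NUL, 5.25 ± 0.933 in LAC and 2.81 ± 0.369 at ID2 (LAC against NUL: log2 fold change 0.73 ± 0.22, adjusted p = 0.0296; ID2 against LAC: log2 fold change -0.90 ± 0.24, adjusted p = 0.0108). Rspo3, which amplifies Wnt signals at the central vein, fell (log2 fold change -0.43 ± 0.14, adjusted p = 0.0432). Without LAC_213 neither of the lactation calls held (adjusted p = 0.140 for Dll1 and 0.0597 for Rspo3), nor did that of Dll1 at ID2 (0.0581). Wnt2 had 3.25 ± 0.262 CPM in NUL and 2.52 ± 0.308 in LAC (log2 fold change -0.37 ± 0.19, adjusted p = 0.235).

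Downstream of BMP ligands, Hamp, the hepcidin gene of hepatocytes, was at 1108 ± 96.8 CPM in NUL, 348 ± 158 in LAC and 725 ± 152 at ID2. It fell (log2 fold change -1.67 ± 0.21, adjusted p = 2.1e-05) in the comparison in which Bmp2 fell, and rose (log2 fold change 1.06 ± 0.22, adjusted p = 0.00213) after weaning. At ID4 Hamp was at 544 ± 123 CPM, again below NUL (log2 fold change -1.03 ± 0.19, adjusted p = 0.00194), where Bmp2 was at 11.96 ± 0.834 and was not called. Any part of Bmp2 in the Hamp levels was not tested. Smad6, an inhibitor induced by BMP signals, fell in LAC (log2 fold change -0.55 ± 0.15, adjusted p = 0.0135), a call lost without LAC_213 (adjusted p = 0.0874) or LAC_200. Of the 16 genes of this list 2 fell and none rose in LAC, with a median of -0.18. Bmp6, the other hepcidin-inducing ligand of these cells, is named outside the rule and after its values were seen. It had 3.21 ± 0.362 CPM in NUL, 2.39 ± 0.200 in LAC and 2.40 ± 0.605 at ID2, with no call (log2 fold change -0.43 ± 0.20, adjusted p = 0.194).

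The gene of lipoprotein lipase, the enzyme that Gpihbp1 holds on capillaries, moved opposite to Gpihbp1 in LAC against NUL. At ID2 it fell, while the higher Gpihbp1 was not called. Both had a higher mean at ID6 than at ID2 (Gpihbp1: 18.4 and 17.5 CPM). Lpl was at 15.1 ± 6.52 CPM in NUL, 122 ± 34.9 in LAC and 34.2 ± 7.18 at ID2 (LAC against NUL: log2 fold change 3.02 ± 0.31, adjusted p = 6.5e-06; ID2 against LAC: log2 fold change -1.84 ± 0.33, adjusted p = 0.000914). It was still above NUL at ID6, at 56.6 ± 7.78 (log2 fold change 1.91 ± 0.28, adjusted p = 0.000669). The 4 adipose markers summed to 0.103 to 0.259 CPM in LAC and 0.107 to 0.456 in NUL, near 0 in both. They summed to 0.121 to 2.74 at ID2 and 0.0695 to 3.68 at ID6, and their part in the Lpl levels was not tested. Apoa5, an activator of the lipase, fell in LAC (log2 fold change -0.62 ± 0.15, adjusted p = 0.00729).

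Of 7 genes tested for hyaluronan handling and for matrix proteins bound by stabilins or hyaluronan receptors, 4 fell in LAC and none rose. Tgfbi, a matrix protein cleared by the stabilins, was at 29.8 ± 5.49 CPM in NUL, 14.2 ± 0.616 in LAC and 27.7 ± 3.50 at ID2 (LAC against NUL: log2 fold change -1.07 ± 0.15, adjusted p = 3.7e-05; ID2 against LAC: log2 fold change 0.96 ± 0.16, adjusted p = 0.000195). Postn, which encodes periostin, fell (log2 fold change -0.78 ± 0.16, adjusted p = 0.00170), as did Cd44, a hyaluronan receptor of leukocytes and other cells (log2 fold change -0.69 ± 0.20, adjusted p = 0.0190). The Cd44 call was lost without LAC_213 (adjusted p = 0.156).

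Several marker groups of other liver cells were also lower in lactation. The summed level of the 10 sinusoidal genes was 259 to 316 CPM in LAC and 337 to 394 in NUL. Kupffer cell and macrophage markers summed to 300.2 to 422 in LAC and 450.4 to 573 in NUL, with 7 of 10 called lower, among them Adgre1 (log2 fold change -0.74 ± 0.15, adjusted p = 0.00128), Vsig4 (log2 fold change -0.67 ± 0.13, adjusted p = 0.00128) and Timd4 (log2 fold change -0.65 ± 0.16, adjusted p = 0.00797). Stellate cell markers summed to 187 to 192 in LAC and 238 to 298 in NUL, with 3 of 7 called lower, led by Reln (log2 fold change -0.68 ± 0.14, adjusted p = 0.00221). Called lower were also 3 of 4 smooth muscle genes, 3 of 5 leukocyte genes, 2 of 6 bile duct genes and 1 of 3 lymphatic genes, but 0 of 4 platelet and 0 of 5 erythroid genes. All 5 erythroid genes had a higher fitted value in LAC (median 0.86, none called), and they summed to 768 to 1016 CPM there and 335 to 712 in NUL, without overlap. Without LAC_213 these became 6 of 10 Kupffer cell, 3 of 7 stellate, 0 of 4 smooth muscle, 1 of 5 leukocyte, 1 of 6 bile duct and 0 of 3 lymphatic genes. Without LAC_240 3 of the 10 Kupffer cell genes were called.

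Of the 7 hepatocyte markers 6 had a higher fitted value in LAC, with a median of 0.14. Albumin rose (log2 fold change 0.98 ± 0.14, adjusted p = 5.5e-05) in LAC, and none of the other 6 hepatocyte genes was called. With the mitochondrial genes and the 20 most abundant genes left out of the scaling, Bmp2, Gpihbp1 and Stab1 remained called lower in LAC. Kupffer cell, stellate, erythroid, albumin and other marker levels moved with the lactation result on the 10 genes, and their part in it was not tested. No marker of these lists defining the other cell types was at 0 in all LAC animals, apart from 3 of the pancreas and 1 of the adipose genes.

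**Figure D4:**
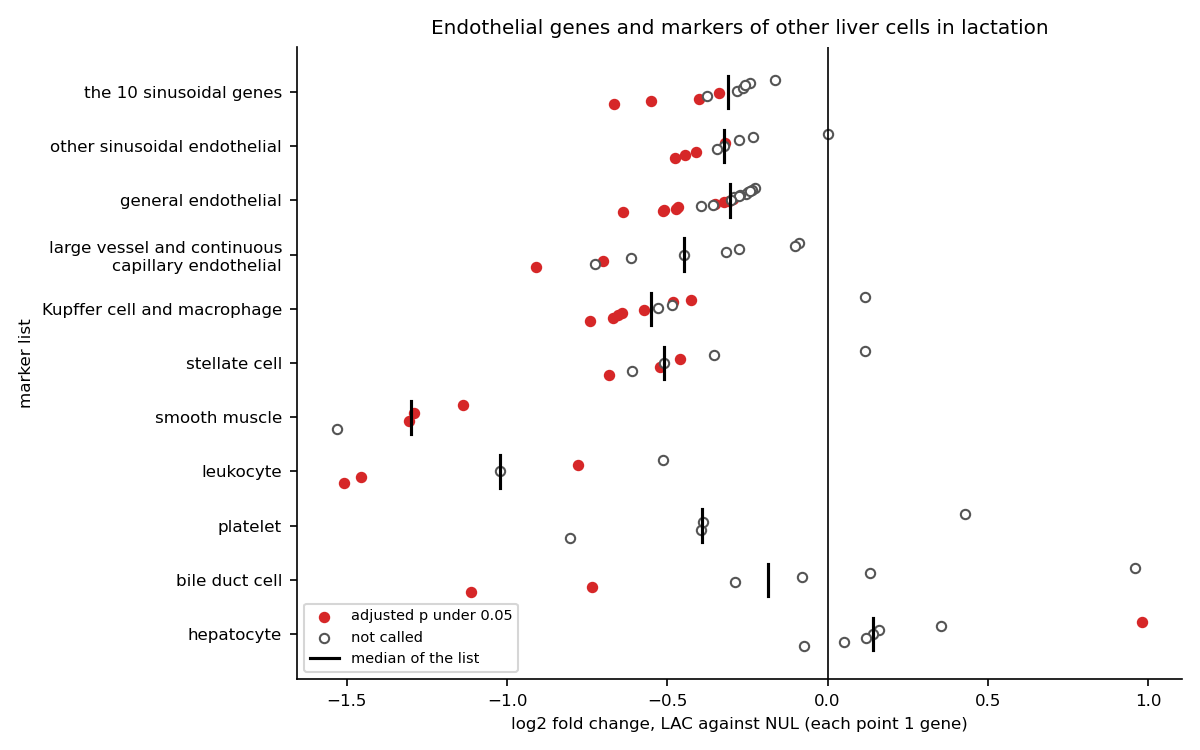
Log2 fold change in LAC against NUL (x axis) of each tested gene of the marker lists (y axis: list; each point 1 gene; filled: called by edgeR; bar: median of the list). The 4 endothelial lists shown have medians between -0.31 and -0.45, Kupffer cell and stellate markers -0.55 and -0.51, and hepatocyte markers 0.14.

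At ID4 and ID6 the endothelial level was near that of NUL: the 10 sinusoidal genes summed to 344 to 408 CPM at ID4 and 364 to 393 at ID6, within or close to the range of NUL, and none was called against NUL. Kupffer cell and macrophage markers summed to 744.5 to 814 at ID4 and 599 to 931 at ID6, above all NUL animals, with 7 of 10 genes called higher at ID4 and 5 of 10 at ID6. At ID2 (416 to 517), ID8 (523 to 642) and in REG (474 to 602) the macrophage sums overlapped NUL, and 0 of 10 were called. Adgre1, for instance, was at 17.7 ± 2.31 CPM in NUL and 28.1 ± 4.36 at ID4 (log2 fold change 0.67 ± 0.13, adjusted p = 0.00278). Stellate markers at ID4, at 227.4 to 249.7 CPM, lay low in the nulliparous range or below it. Erythroid markers summed to 335 to 712 CPM in NUL and to 19.9 to 35.0 at ID8, where Clec4g, Pecam1 and Oit3 had their highest group means; the part of these markers in those means was not tested.

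**Figure D5:**
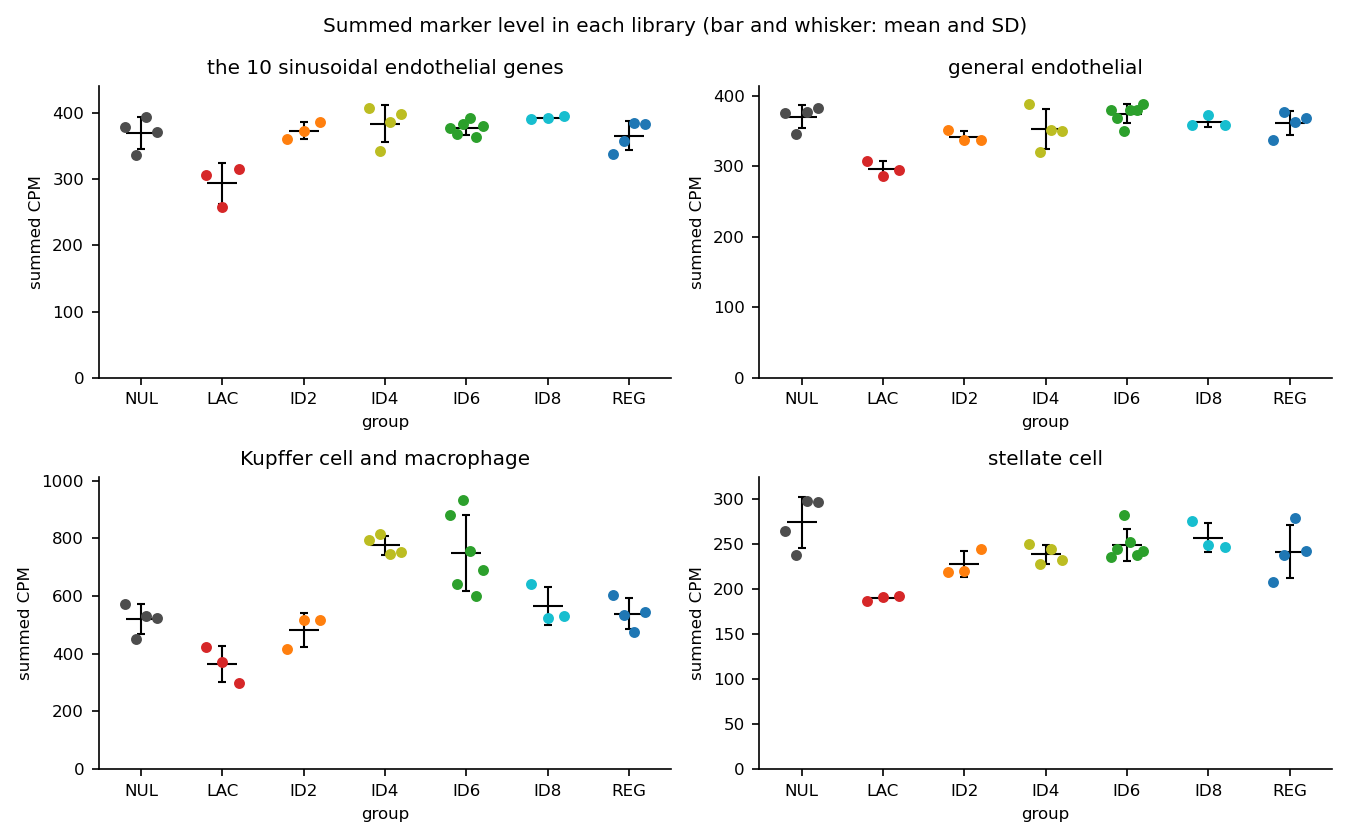
Summed CPM (y axis, from 0) of the 10 sinusoidal genes, 20 general endothelial genes, 10 Kupffer cell and macrophage markers and 7 stellate markers in every library, by group (x axis; points: animals; bar and whisker: mean and SD). All 4 sums have their lowest group mean in LAC, and every ID4 and ID6 animal exceeds every NUL animal in the macrophage sum, while both endothelial sums overlap NUL at those days.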

How the data were processed

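RNA from 27 whole mouse livers was sequenced, 1 library an animal, after Trizol extraction and NEBNext Ultra RNA library preparation, per the labels' protocols. The submitters' processing notes name STAR 2.6.1a, RSEM 1.3.1 and the build mm10 (GRCm38). The deposited estimated counts and the deposited TPM are RSEM output per gene with no further scaling by the authors that the file headers record. The annotation the authors used is not given in the sources used here; gene identifiers were paired with symbols and positions through mouse GENCODE release 21 (51633 of 51826).

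Estimated counts were rounded to whole numbers. Genes passing edgeR's filterByExpr were kept (16428 genes, at least 99.978% of the counts of each library), library totals were scaled by TMM (factors 0.886 to 1.10), and all 7 groups were fitted in 1 quasi-likelihood model (edgeR 4.0.16 in R 4.3.3, robust). The 11 comparisons set every later stage against NUL, or against the preceding stage from lactation on, and a joint test covered all stages. P-values were adjusted by the method of Benjamini and Hochberg over all 16428 genes, and a gene was called at an adjusted p under 0.05. The biological coefficient of variation was 0.190. CPM are counts over the TMM-scaled library total. The test was first tried on simulated counts.

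Alternatives were RLE and upper-quartile scaling, DESeq2 1.42.0, other filters, limma 3.58.1 on log2(TPM + 1) and log2(TPM + 0.1), scaling without mitochondrial and the 20 most abundant genes, title number range and sequencing runs (1 or 2 in the authors' deposited notes) as terms, fits of the compared groups only, and leaving out each animal. A fit without 3 libraries with pancreas markers (over 10 CPM) and the ratios to other endothelial genes (exact permutation tests, scipy 1.17.1) were added after the data had been seen. The 10 genes and 19 further lists were chosen with earlier results of these data known. From each list the genes with the smallest adjusted p in the joint test (up to 3), or the largest change among those called in the 2 lactation comparisons (up to 3), could be named. Pgf, Has2, Gp9 and Lep did not pass the filter. 1 gene of the lipolysis list is not reported here.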

Additional observations from a re-analysis of the deposited data

How the results depend on the processing

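No result reversed its direction where it was called. The number of called members moved by more than 1.5 times in these cases. In the joint test it was 3, against 6, with only title numbers of 200 and over, a range that leaves out ID8 altogether. In LAC against NUL it was 2, against 4, with only the compared groups in the fit, where 1315 of 15134 genes were called, against 1837 of 16428. In ID2 against LAC it was 6, with 2648 of 16428 genes called. It became 3 with only the compared groups (2693 of 14820 genes) and 2 with the title number range as a term (1249 of 16428). Only title numbers of 200 and over leave ID2 with 1 animal, so fewer calls there could not be told apart from fewer animals. Where none was called, 1 was called in ID4 against NUL by DESeq2, in ID4 against ID2 by limma on log2(TPM + 1) and on log2(TPM + 0.1) (1 each, Clec4g), and in ID8 against ID6 by upper-quartile scaling, by DESeq2 and with a stricter filter (1 each, Oit3). With single animals left out the counts ranged from 3 to 8 in the joint test, 1 to 6 in LAC against NUL, 1 to 5 in ID2 against LAC, 0 to 1 in ID4 against NUL and 0 to 1 in ID8 against ID6, and were 0 in the other comparisons. The causes were not tested. Group means moved by more than 1 SD in 7 of 70 cases with TPM in place of CPM. No paired analysis was possible because no title number occurs in more than 1 group. Each member had at least 194 counts in every library; what limits depth and the number of animals set was not tested.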
